A study of Homo sapiens with 32 samples.

Results

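HGrC1 cells that received 0.1 µM perfluorooctane sulfonate (PFOS) for 12 weeks were compared with HGrC1 cells that received 0.01 µM PFOS for the same time. The comparison was given by the design, not by measured values, and took 8 of the 32 libraries of the study, 4 at each concentration. The other libraries were the vehicle control (0.05% DMSO), the 1 µM group and the same 4 groups after 6 weeks. HGrC1 is an immortalized human line made from the granulosa cells of the ovarian follicle, and all libraries come from this 1 line. Each of 4 vials, thawed and expanded in a flask of its own, was split over the 4 groups, and PFOS was added again at each passage, and replicate numbers are read here as vial numbers, which is uncertain for the control and 1 µM libraries of 12 weeks. All cultures, the controls among them, were kept in medium with 10% fetal bovine serum and 100 nM of a sex hormone, which the sample labels give as estradiol and the methods of the study as testosterone. Both concentrations are exposures, so that the step of 0.01 to 0.1 µM is not a difference from the control libraries. The main test did use all 16 libraries of 12 weeks, the control among them, to filter genes, scale counts and estimate the spread.

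PFOS is a persistent surfactant that binds serum proteins and reaches follicular fluid. Granulosa cells surround the oocyte, answer gonadotropins and turn androgens into estrogens with aromatase. Much of their rapid response to hormones, growth factors and stress runs through immediate early genes, transcription factors such as those of the FOS, JUN, EGR, KLF and NR4A families that are switched on within minutes and whose transcripts decay fast. The aryl hydrocarbon receptor (AHR) is a transcription factor that binds planar pollutants, pairs with ARNT, and raises the xenobiotic enzymes CYP1A1 and CYP1B1 and its own repressor TIPARP. In the integrated stress response, ATF4 and ATF3 raise DDIT3 and PPP1R15A, the latter of which lets translation start again.

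Total counts were 18093090 to 18448802 at 0.01 µM and 18042991 to 18207214 at 0.1 µM, so depth hardly differed. Several defining markers of granulosa cells were absent or nearly so in these cells: CYP19A1, which encodes aromatase, had 0 counts in all 8 libraries, and NR5A1 and AMHR2 had at most 2. FOXL2 was at 0.84 ± 0.21 and 0.88 ± 0.26 CPM (counts scaled to the normalized library size, SD, n = 4), whereas GATA4 was at 127 ± 10.1 and 126 ± 7.21 CPM. Summed over 26 granulosa identity genes, the level was 515 to 574 TPM (a level per transcript length) at 0.01 µM and 512 to 558 TPM at 0.1 µM. Markers of the other cells of the ovary summed to 24.6 to 35.3 TPM for theca, 1.95 to 2.99 TPM for endothelium and 18.04 to 25.4 TPM for leukocytes, with CYP17A1 at no more than 1 count and CD3E at 0. Stromal markers summed to 494 to 697 TPM and keratin-rich markers of the surface epithelium to 8416 to 10080 TPM, and the ranges of both groups overlapped in all of these lists. In bulk RNA, fewer cells of a type and less RNA per cell cannot be told apart.

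The 4 libraries at 0.01 µM differed more from each other than those at 0.1 µM did. The chi-square per degree of freedom between pairs of libraries reached 16.2 at 0.01 µM and lay between 3.68 and 6.91 at 0.1 µM. Replicates 3 and 4 at 0.01 µM stood apart by transcript length: the median log2 deviation of long minus that of short transcripts was −0.215 and −0.141 in them, −0.0356 and 0.0397 in the other two, and 0.0248 to 0.102 at 0.1 µM. An exact two-sided permutation test of this length balance gave p = 0.0571 for 4 against 4 libraries, and 0.129 after Benjamini-Hochberg adjustment over 9 library measures. Transcripts of mitochondrial DNA took 4.61% ± 0.73 of the counts at 0.01 µM and 5.46% ± 0.31 at 0.1 µM (SD, n = 4, exact p = 0.0286, adjusted 0.129). The genes and list medians named below were therefore also computed with the length trend removed from the libraries, and with replicates 1 and 2 alone as the 0.01 µM group, both settings chosen after the data had been seen. These values are printed where a log2 fold change or median of at least 0.1 in size moved by over 1.5 times or changed sign, and for some others.

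No gene separated 0.1 from 0.01 µM PFOS at 12 weeks at the thresholds set. Of 12742 genes tested, 0 (0%) passed a Benjamini-Hochberg adjusted p of 0.05 in edgeR's quasi-likelihood test on the 16 libraries of 12 weeks, and 0 were differentially expressed genes (DEGs), which also need a change of at least 2-fold. The lowest adjusted p was 0.0598, for MLF1, and with the 8 libraries alone the lowest was 0.163 in the same edgeR test. At an unadjusted p under 0.05 there were 1891 genes (14.8%), 803 higher (6.3%) and 1088 lower (8.54%) at 0.1 µM. The median log2 fold change over all genes tested was 0.00, 5% of the genes lay under −0.239 and 5% over 0.224, and the median 95% interval reached 0.152 to either side. Changes of at least 2-fold were seen in 17 genes (0.133%). In 375 genes (2.94%) all 4 libraries at 0.1 µM lay over all 4 at 0.01 µM, and in 370 (2.9%) they lay under them, 745 in all (5.85%).

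The count depended on how the vials entered the fit. With the vial as replicate block in the 16 libraries, 13 genes (0.102%) passed the adjusted p, 12 lower (0.0942%; FOSB, MLF1, JUN, KLF4, CENPW, TIPARP, PPP1R15A, NDUFA6, SNRPD2, ATF3, FOXJ1 and TMEM141) and 1 higher (0.00785%, LENG8), of which FOXJ1 was a DEG. With the block in the 8 libraries alone, 65 genes passed, these 13 among them. DESeq2 called 44 genes on the 8 libraries and 148 on the 16, and limma voom called 0 with 1857 at an unadjusted p under 0.05. Among the 12 genes that fell with the block were 4 of the 27 tested immediate early factors, namely the AP-1 subunits FOSB and JUN, the zinc finger factor KLF4 and ATF3. ATF3 and the phosphatase subunit PPP1R15A belong to the 27 tested stress response genes, and the AHR repressor TIPARP to the 13 of the AHR pathway. With the length trend removed and the block kept, 7 genes (0.0549%) passed, of which FOSB, JUN, MLF1, KLF4, PPP1R15A and TIPARP were lower (0.0471%) and LENG8 higher (0.00785%). Without the block, removing the trend left 0 genes past the adjusted p and 1161 (9.11%) at an unadjusted p under 0.05. Single libraries moved the count as well, to 394 without vial 1, 642 without 0.01 µM replicate 1 and 11 without 0.1 µM replicate 1.

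The 250 bases before the start sites of 6 of these 13 genes are shown, of which TIPARP, PPP1R15A, MLF1, CENPW and LENG8 hold motifs of AHR, ATF or CREB factors, and FOSB, the gene of lowest p with the block, holds a TATA box alone of the motifs marked. The sequences are RefSeq's on GRCh38.p14, 5′ to 3′ on the plus strand, on which all 6 genes lie: TIPARP at chr3:156674340-156674589, FOSB at chr19:45467746-45467995, PPP1R15A at chr19:48872171-48872420, MLF1 at chr3:158570944-158571193, CENPW at chr6:126339865-126340114 and LENG8 at chr19:54448949-54449198. Capitals mark matches on either strand to GCGTG (the AHR core), TGACGTCA (the cAMP response element bound by ATF and CREB factors) or the core promoter box TATAAA.
TIPARP: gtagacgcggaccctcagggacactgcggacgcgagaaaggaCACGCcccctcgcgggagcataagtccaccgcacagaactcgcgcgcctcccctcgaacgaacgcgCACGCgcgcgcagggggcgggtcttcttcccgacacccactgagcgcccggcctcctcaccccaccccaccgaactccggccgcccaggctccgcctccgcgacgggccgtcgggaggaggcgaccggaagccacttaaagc
FOSB: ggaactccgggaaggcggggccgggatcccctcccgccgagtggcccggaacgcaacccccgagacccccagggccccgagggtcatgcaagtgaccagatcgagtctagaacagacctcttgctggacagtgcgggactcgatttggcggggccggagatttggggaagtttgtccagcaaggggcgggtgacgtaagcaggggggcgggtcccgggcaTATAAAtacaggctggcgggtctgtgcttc
PPP1R15A: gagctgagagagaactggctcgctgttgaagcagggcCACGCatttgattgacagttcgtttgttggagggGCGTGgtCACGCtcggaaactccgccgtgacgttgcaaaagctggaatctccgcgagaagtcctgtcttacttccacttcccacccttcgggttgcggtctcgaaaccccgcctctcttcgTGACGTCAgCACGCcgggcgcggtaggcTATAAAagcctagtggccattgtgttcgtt
MLF1: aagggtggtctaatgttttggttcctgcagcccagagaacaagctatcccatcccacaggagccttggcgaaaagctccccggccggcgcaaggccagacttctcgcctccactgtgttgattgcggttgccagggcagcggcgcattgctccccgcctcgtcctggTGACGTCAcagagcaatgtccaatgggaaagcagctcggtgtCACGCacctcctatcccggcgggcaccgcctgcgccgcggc
CENPW: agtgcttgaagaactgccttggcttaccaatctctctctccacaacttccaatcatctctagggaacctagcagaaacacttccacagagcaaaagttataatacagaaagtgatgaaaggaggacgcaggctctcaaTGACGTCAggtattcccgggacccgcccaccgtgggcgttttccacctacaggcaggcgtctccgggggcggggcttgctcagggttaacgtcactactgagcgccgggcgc
LENG8: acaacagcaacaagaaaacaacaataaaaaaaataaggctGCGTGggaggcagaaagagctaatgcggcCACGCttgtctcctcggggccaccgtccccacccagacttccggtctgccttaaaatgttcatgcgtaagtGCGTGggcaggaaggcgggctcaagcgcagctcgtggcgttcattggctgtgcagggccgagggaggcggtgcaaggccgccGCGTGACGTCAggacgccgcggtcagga

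In windows of 250 bases before to 50 after the start, the AHR core was in 8 of the 12 genes with a RefSeq window, against 36.5% of 35116 promoters, and the cAMP response element in 4 (MLF1, CENPW, PPP1R15A and LENG8) against 1.85%. The 8 genes with the AHR core include FOSB, through 1 match that the 250 bases shown do not hold in full. In LENG8 the AHR core and the cAMP response element overlapped. The AP-1 site TGANTCA was in 0 of the 12 (7.71% of all promoters), the 10-letter form searched of the serum response element in 0 (0.0342%) and TATAAA in 2 (11.5%). These matches describe the letters of the windows and are not evidence of binding. The 6 genes shown above were not chosen by a set rule, and they include all 4 with the cAMP response element. Of the genes not shown, ATF3, KLF4 and TMEM141 held none of the motifs searched. JUN, NDUFA6 and SNRPD2 held the AHR core alone, and FOXJ1 had no window in the table used.

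TIPARP (gene ID 25976, GRCh38.p14 chromosome 3, 156674590 to 156706770), the mono-ADP-ribosyltransferase that AHR induces and that represses AHR in turn, stood at 157, 155, 161 and 133 CPM in vials 1 to 4 at 0.01 µM. With 0.1 µM it stood at 126, 95.2, 95.8 and 90.6 CPM. All 4 libraries at 0.1 µM lay under all 4 at 0.01 µM, and vial 1 was the highest of its group by a wide gap. The log2 fold change was −0.57 (standard error, SE, 0.11), or 32.8% lower, with an edgeR adjusted p of 0.0895 without the block and 0.0289 with it. It was −0.59 with the length trend removed and −0.61 against replicates 1 and 2 of the 0.01 µM group alone. For orientation, TIPARP was at 185, 154, 218 and 192 CPM in the control and at 99.3, 97.2, 95.2 and 91.5 CPM at 1 µM, so that the 0.1 µM libraries lay near the latter.

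Among 13 tested genes of the AHR pathway, 9 had a log2 fold change below 0 (49.9% of all genes had), and 3 were lower at an unadjusted p under 0.05 (TIPARP, NQO1 and CYP1B1), as were 8.54% of all genes. NQO1, a quinone reductase driven by both AHR and NRF2, was at 375, 413, 423 and 414 CPM at 0.01 µM and at 339, 321, 322 and 365 CPM at 0.1 µM, groups that did not overlap (log2 fold change −0.27, SE 0.06, edgeR adjusted p = 0.116). CYP1B1, a hydroxylase of estradiol and of polycyclic pollutants, was at 365, 399, 349 and 298 CPM at 0.01 µM against 284, 284, 278 and 290 CPM at 0.1 µM. Its groups did not overlap either, since the narrow 0.1 µM group lay just under the lowest 0.01 µM library (log2 fold change −0.31, SE 0.11, edgeR adjusted p = 0.225, 0.255 with the block). CYP1A1, the best known AHR target, had only 2 to 11 counts at 0.01 µM and 2 to 6 at 0.1 µM, and the groups overlapped. Its counts were lower at 0.1 µM in vials 1 to 3 and equal in vial 4 (log2 fold change −0.93, SE 0.54, edgeR adjusted p = 0.44). AHR itself (log2 fold change 0.05, SE 0.08) and its partner ARNT (0.00, SE 0.05) differed by less than their standard errors, and the AHR repressor AHRR was at 0.12 (SE 0.12), 0.08 with the length trend removed and −0.12 against replicates 1 and 2 alone. The median of the list was −0.10, −0.04 with the length trend removed and −0.17 against replicates 1 and 2 alone, beside 0.00 over all genes.

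The immediate early factors were one-sided, with 25 of 27 tested members below 0 against 49.9% of all genes. At an unadjusted p under 0.05, 9 members were lower (8.54% of all genes were) and 0 higher, 6 had groups that did not overlap (2.9% of all genes lay lower without overlap), and 4 (FOSB, JUN, KLF4 and ATF3) fell with the block. Lower values in every vial were found in 12 members (44.4%), against 1301 of all genes (10.2%). The list's median log2 fold change was −0.16, −0.14 with the length trend removed and −0.22 against replicates 1 and 2 alone.

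**Figure D1:**
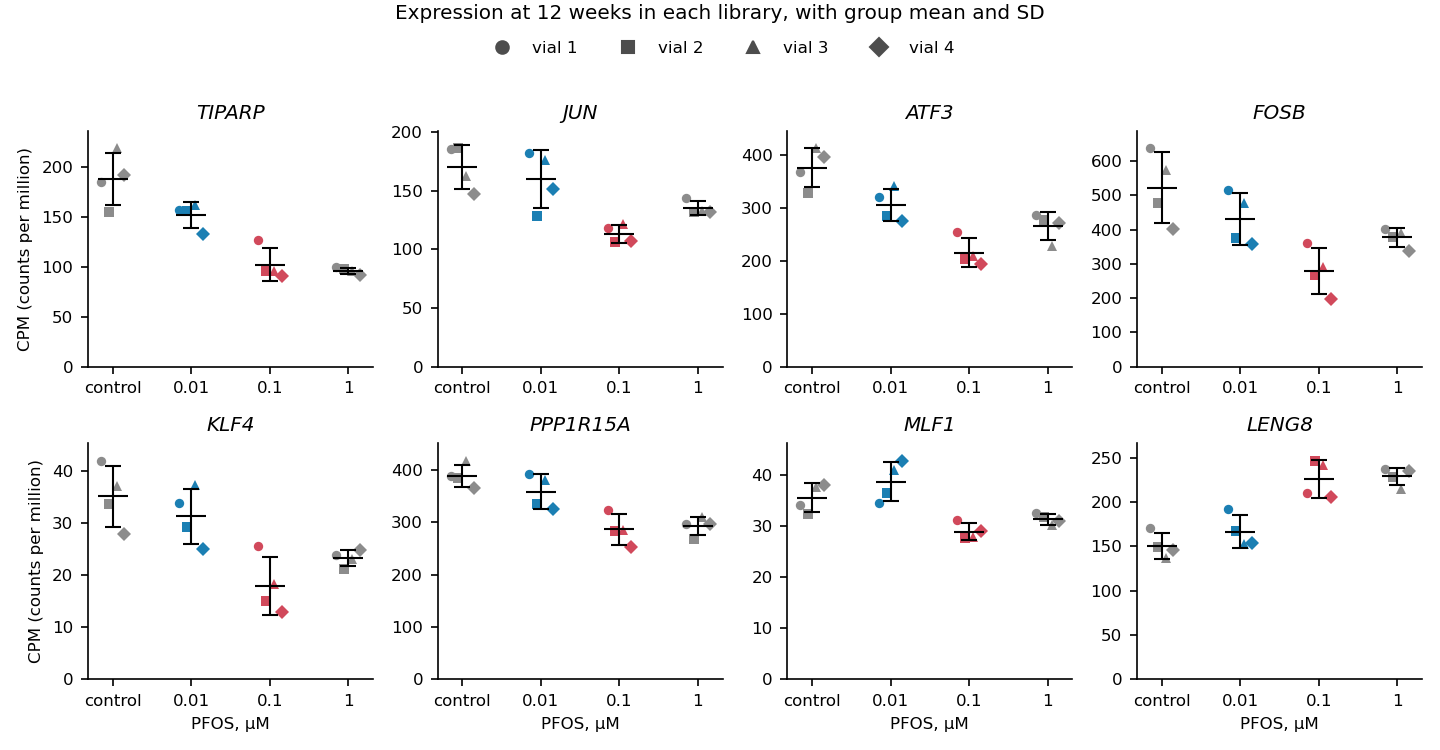
CPM of 8 genes at 12 weeks in each library (symbols are vials 1 to 4) for the control and the 3 PFOS concentrations, with the group mean (long bar) and SD (short bars), n = 4. In 6 of the 8 panels the 0.1 µM mean is the lowest of the 4 groups, as for JUN with 106 to 121 CPM, TIPARP is as low at 1 µM, and LENG8 runs the other way.

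JUN (gene ID 3725, chromosome 1, 58780791 to 58784047), the central subunit of AP-1, was at 182, 128, 176 and 152 CPM at 0.01 µM and at 118, 106, 121 and 107 CPM at 0.1 µM. The groups did not overlap, and vial 2 came closest to doing so. The log2 fold change was −0.49 (SE 0.10, 28.9% lower, edgeR adjusted p = 0.0895, 0.0174 with the block). FOSB (gene ID 2354, chromosome 19, 45467996 to 45475179), a dimer partner of JUN, was at 515, 375, 477 and 359 CPM at 0.01 µM and at 360, 267, 290 and 198 CPM at 0.1 µM. These groups overlapped, since the vials differed in their level, yet within each vial the 0.1 µM library was lower. Accordingly the edgeR adjusted p was 0.182 without the block and 0.000275 with it, the lowest of any gene in that fit. The log2 fold change was −0.63 (SE 0.18) without the block and −0.64 (SE 0.07) with it. FOS, its close relative, was at 637 ± 127 and 523 ± 89.5 CPM (SD, n = 4), a difference within the spread (log2 fold change −0.28, SE 0.18).

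ATF3 (gene ID 467, chromosome 1, 212565407 to 212620777), which links AP-1 with the stress responses, was at 320, 285, 341 and 275 CPM at 0.01 µM. With 0.1 µM it stood at 255, 203, 210 and 194 CPM, all under the 0.01 µM libraries (log2 fold change −0.50, SE 0.09, edgeR adjusted p = 0.0895, 0.0421 with the block). KLF4 (gene ID 9314, chromosome 9, 107484852 to 107489769), a factor of differentiation and growth arrest, had the largest fold of the list at a log2 fold change of −0.80 (SE 0.19). At 0.01 µM it stood at 33.8, 29.2, 37.3 and 25.1 CPM and at 0.1 µM at 25.6, 15.1, 18.4 and 12.9 CPM, overlapping groups that were lower in each vial, with an adjusted p of 0.135 without and 0.02 with the block. Members that did not pass in either fit were MYC (log2 fold change −0.22, SE 0.06), which drives growth, MAFF (−0.26, SE 0.07), KLF6 (−0.19, SE 0.06), IER5 (−0.24, SE 0.08) and IER3 (−0.38, SE 0.16). EGR1, which luteinizing hormone raises in granulosa cells, was at 0.11 (SE 0.23), but at −0.08 against replicates 1 and 2 alone, and KLF10 was at 0.00. NR4A1 and NR4A3 are orphan receptors of the luteinizing response. NR4A1 was at −0.06 (SE 0.21). NR4A3 was at 69.3, 46.0, 53.1 and 38.8 CPM at 0.01 µM and at 67.8, 33.2, 27.6 and 26.0 CPM at 0.1 µM, lower in each vial with overlapping groups. Its log2 fold change was −0.42 (SE 0.29), and −0.46 (SE 0.20) with the block, where edgeR's unadjusted p was 0.044 and the adjusted p 0.315, and it ranged from −0.85 to −0.26 over all settings run.

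**Figure D2:**
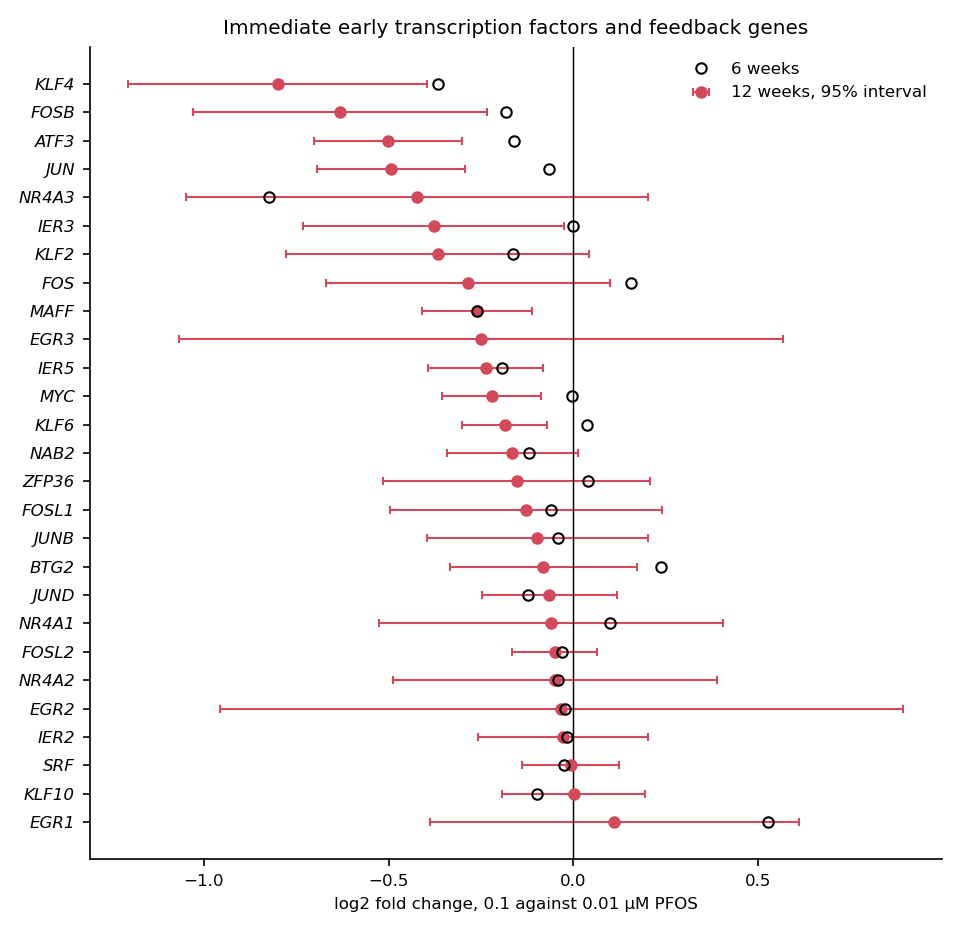
Log2 fold changes of the 27 tested immediate early genes, 0.1 against 0.01 µM PFOS, at 12 weeks (filled, with 95% intervals) and at 6 weeks (open). The 12-week values lie left of 0 for 25 of 27 genes, and those of KLF4, FOSB, ATF3 and JUN lie farthest left.

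Feedback genes of the MAP kinases, the cascade upstream of many of these factors, leaned the same way more weakly, with 11 of 17 below 0 and a median of −0.12 (−0.08 against replicates 1 and 2 alone). DUSP6, the phosphatase of ERK, was at 8.11, 6.67, 9.78 and 7.03 CPM at 0.01 µM and 5.75, 5.04, 5.55 and 4.56 CPM at 0.1 µM, without overlap (log2 fold change −0.60, SE 0.19, edgeR adjusted p = 0.185). PHLDA1 (−0.33, SE 0.13) and ERRFI1, an inhibitor of the EGF receptor (−0.13, SE 0.05), were the other members lower at an unadjusted p under 0.05, and the inhibitor SPRED1 was higher at 0.18 (SE 0.08; 0.12 with the length trend removed). These 3 lower members of 17 compare with 8.54% of all genes. The EGF receptor EGFR was at 0.14 (SE 0.06), but at 0.06 (SE 0.05) with the length trend removed and at 0.03 against replicates 1 and 2 alone. The granulosa EGF-like ligands AREG, EREG and BTC had at most 1 count and could not be tested.

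Stress response genes were lower in part. PPP1R15A (gene ID 23645, chromosome 19, 48872421 to 48876058), which dephosphorylates the translation factor eIF2α, was at 393, 336, 380 and 325 CPM at 0.01 µM and at 324, 283, 286 and 253 CPM at 0.1 µM. The lowest 0.01 µM library lay only just over the highest 0.1 µM library, and each vial was lower (log2 fold change −0.32, SE 0.07, edgeR adjusted p = 0.117, 0.0297 with the block). Of 27 genes of the integrated stress and unfolded protein response, 20 were below 0 (median −0.04), with 6 lower and 1 higher at an unadjusted p under 0.05 and 5 lower without overlap, against 8.54%, 6.3% and 2.9% of all genes. DDIT3, the proapoptotic factor CHOP, was at 22, 23.6, 22 and 26.4 CPM against 19.8, 19.2, 18.2 and 17.1 CPM (log2 fold change −0.34, SE 0.08, edgeR adjusted p = 0.132). It was at −0.21 with the length trend removed. XBP1 (−0.21, SE 0.05) and the chaperone cofactor DNAJB9 (−0.30, SE 0.10) also had groups that did not overlap, whereas ATF4 (−0.05, SE 0.06) and the chaperone HSPA5 (−0.05, SE 0.05), both defining genes of these responses, differed by no more than their standard errors.

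Heat shock chaperones were below 0 in 15 of 17 genes, with 6 lower and 1 higher at an unadjusted p under 0.05 (8.54% and 6.3% of all genes) and a median of −0.13 (−0.10 with the length trend removed, −0.11 against replicates 1 and 2 alone). HSPA1B, the inducible HSP70, was at 346, 322, 313 and 310 CPM at 0.01 µM and 277, 256, 253 and 304 CPM at 0.1 µM, without overlap (log2 fold change −0.25, SE 0.06, edgeR adjusted p = 0.135). Its near-identical copy HSPA1A was at −0.13 (SE 0.08; −0.22 against replicates 1 and 2 alone), and the authors' counting may divide reads between both, so that either count is uncertain. The cochaperone DNAJB1 (−0.17, SE 0.05) and the constitutive HSPA8 (−0.25, SE 0.07) were lower as well, while the small heat shock protein CRYAB was higher, at 0.35 (SE 0.16).

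MLF1 (gene ID 4291, chromosome 3, 158571194 to 158606456), a nucleocytoplasmic adaptor found in leukemia fusions, had the lowest adjusted p of the comparison. It was at 34.6, 36.6, 41.1 and 42.9 CPM at 0.01 µM and at 31.2, 27.6, 28 and 29.1 CPM at 0.1 µM. The groups did not overlap, and vials 3 and 4 differed most (log2 fold change −0.42, SE 0.07, edgeR adjusted p = 0.0598, 0.0174 with the block, and a log2 fold change of −0.30 against replicates 1 and 2 alone). FOXJ1, the factor of motile cilia, was at 1.38, 1.82, 2.83 and 2.38 CPM (25 to 52 counts) against 1.04, 0.665, 0.815 and 0.77 CPM (12 to 19 counts). Its log2 fold change of −1.35 (SE 0.25, edgeR adjusted p = 0.0895, 0.0456 with the block) came down to −0.95 against replicates 1 and 2 alone.

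The other genes that fell with the block have short transcripts and depended on the length trend. The kinetochore gene CENPW was at 39.2, 42.6, 43.7 and 50.1 CPM against 35.7, 33.6, 32.7 and 35.8 CPM, with a log2 fold change of −0.35 (SE 0.07) that became −0.21 with the trend removed. Likewise the complex I subunit NDUFA6 moved from −0.33 to −0.22, the spliceosomal SNRPD2 from −0.32 to −0.13 and the membrane protein TMEM141 from −0.39 to −0.25. Against replicates 1 and 2 alone these 4 were at −0.25, −0.21, −0.21 and −0.22. None of these 4 passed with the length trend removed. MRPL1, a mitochondrial ribosomal protein, was the remaining gene of the 5 with the lowest p among those lower, at −0.40 (SE 0.08, edgeR adjusted p = 0.0895, 0.0509 with the block).

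LENG8, which encodes a nuclear protein linked with mRNA processing, was the 1 gene that rose with the block. It was at 193, 168, 153 and 154 CPM at 0.01 µM and at 210, 247, 243 and 206 CPM at 0.1 µM, without overlap. The log2 fold change was 0.44 (SE 0.08, 35.8% higher, edgeR adjusted p = 0.0895, 0.0174 with the block), 0.43 with the length trend removed and 0.33 against replicates 1 and 2 alone. Next by p came MTHFSD (0.30, SE 0.07), the WNT receptor ligase ZNRF3 (0.31, SE 0.07), the let-7 inhibitor LIN28A (0.40, SE 0.09) and CCDC9B (0.30, SE 0.07), with edgeR adjusted p values of 0.117 to 0.125. All 4 had groups that did not overlap and none passed, and CCDC9B came down to 0.16 against replicates 1 and 2 alone. AXIN2, the standard WNT target, was at 0.34 (SE 0.11, edgeR adjusted p = 0.194), and 11 of 21 WNT genes were above 0.

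Steroidogenesis genes were below 0 in 19 of 23 tested, with 3 lower at an unadjusted p under 0.05 (8.54% of all genes) and a median of −0.16 (−0.09 with the length trend removed, −0.08 against replicates 1 and 2 alone). CYB5A, the cytochrome b5 that aids CYP17A1, was at 58.4, 57.1, 61.4 and 63.7 CPM at 0.01 µM and at 53.6, 51.2, 53.2 and 54.8 CPM at 0.1 µM (log2 fold change −0.18, SE 0.06, edgeR adjusted p = 0.199; −0.12 against replicates 1 and 2 alone). TSPO, a mitochondrial protein linked with cholesterol import, was at −0.18 (SE 0.07), −0.04 with the length trend removed and −0.07 against replicates 1 and 2 alone. The reductase AKR1C3, at −0.58 (SE 0.23), had under 2 CPM in all 8 libraries. STAR, which carries cholesterol into mitochondria, was at 1.91 ± 0.45 and 1.68 ± 0.71 CPM (SD, n = 4). CYP11A1, the side chain cleavage enzyme that starts steroid synthesis, was at 0.40 ± 0.24 and 0.18 ± 0.084 CPM, and neither difference was detectable at this depth.

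Granulosa identity genes divided evenly, 11 above and 10 below 0 (median 0.03). AMH, the hormone of small growing follicles, was at 15, 15.4, 12.3 and 12.1 CPM at 0.01 µM and at 16.9, 16.1, 15.4 and 16.1 CPM at 0.1 µM (log2 fold change 0.23, SE 0.09, edgeR adjusted p = 0.246), but at 0.08 against replicates 1 and 2 alone. RUNX1 (0.15, SE 0.06; 0.05 against replicates 1 and 2 alone) was also among the higher members at an unadjusted p under 0.05. CITED2, a coactivator in the differentiation of granulosa cells, was the lower one, at 242, 227, 257 and 242 CPM against 200, 209, 225 and 202 CPM (log2 fold change −0.21, SE 0.06, edgeR adjusted p = 0.146).

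Interleukins and chemokines were below 0 in 11 of 16 tested genes (median −0.13). CXCL8, the neutrophil chemokine, was at 8.06, 6.5, 8.15 and 8.19 CPM at 0.01 µM and 5.64, 5.43, 3.97 and 5.28 CPM at 0.1 µM, without overlap (log2 fold change −0.60, SE 0.25, edgeR adjusted p = 0.279). IL1B was lower too, at 1.8 ± 0.34 against 0.93 ± 0.26 CPM (SD, n = 4, log2 fold change −0.94, SE 0.39). CCL2 (−0.26, SE 0.11; −0.11 with the length trend removed) and PTX3, the pentraxin of the cumulus matrix (−0.26, SE 0.10), completed the 4 members lower at an unadjusted p under 0.05, against 8.54% of all genes. IL6 was at −0.23 (SE 0.27), −0.13 with the length trend removed and −0.37 against replicates 1 and 2 alone. NF-kappaB subunits and feedback genes showed no such lean (9 of 16 above 0, median 0.01), and the subunit NFKB1 was higher at 0.11 (SE 0.05).

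Interferon-stimulated genes were below 0 in 18 of 25 (median −0.11, −0.04 with the length trend removed, −0.06 against replicates 1 and 2 alone). Their factor IRF1 was at 37.2, 32.5, 35 and 29.5 CPM against 29.7, 26.3, 25.8 and 23.4 CPM, with a slight overlap (log2 fold change −0.35, SE 0.10, edgeR adjusted p = 0.156). IFIT1 depended on which 0.01 µM libraries were used: it was at 12.5 and 12.7 CPM in replicates 1 and 2 but at 20.2 and 17 CPM in replicates 3 and 4, against 12 to 12.5 CPM at 0.1 µM. Metallothioneins, the metal buffers of the cell, followed the same division. All 8 tested genes of their list were below 0 (median −0.29). The list also holds MTF1 (−0.05) and SLC30A1 (−0.05), which are not metallothioneins. Its median was −0.12 with the length trend removed and −0.09 against replicates 1 and 2 alone. MT1X was at 24.3, 26.1, 36.1 and 35 CPM at 0.01 µM against 21.1 to 25.2 CPM at 0.1 µM.

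Glycolysis and hypoxia genes were below 0 in 26 of 32 (median −0.08), with 6 lower at an unadjusted p under 0.05 (8.54% of all genes). Among them were the hexokinase HK2 (−0.27, SE 0.10), the glycolytic regulator PFKFB3 (−0.19, SE 0.08), the mitophagy receptor BNIP3 (−0.21, SE 0.07) and the collagen hydroxylase P4HA1 (−0.17, SE 0.06). Against replicates 1 and 2 alone PFKFB3 was at −0.31, BNIP3 at −0.12 and P4HA1 at −0.11, and BNIP3 was at −0.14 with the length trend removed. NRF2 targets were below 0 in 22 of 28 (median −0.07, −0.02 with the length trend removed), with HMOX1, which breaks down heme, at −0.20 (SE 0.08; −0.13 with the length trend removed). Cholesterol and fatty acid synthesis stayed level (15 of 32 above 0, median −0.01), and HMGCS1 was at −0.08 (SE 0.12). Fatty acid oxidation and PPAR targets, often studied for PFOS in liver, gave 0 higher and 2 lower genes of 25 at an unadjusted p under 0.05, a share near the 8.54% of all genes that were lower, and the gatekeeper CPT1A was at 0.00 (SE 0.07).

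Among p53 targets, the proapoptotic PMAIP1 was at 36.1, 34.7, 39.6 and 40.9 CPM against 32.8, 29.5, 30.3 and 30 CPM (log2 fold change −0.30, SE 0.07, edgeR adjusted p = 0.125), and the CDK inhibitor CDKN1A was at −0.27 (SE 0.12). MDM2, the p53 ligase, was higher at 0.15 (SE 0.05; 0.08 with the length trend removed, 0.09 against replicates 1 and 2 alone), and the list as a whole had 12 of 31 genes above 0. Cell cycle and DNA replication genes had a median of −0.02 over 38 genes, with PCNA at −0.13 (SE 0.05), but at −0.04 (SE 0.05) with the length trend removed and at −0.08 against replicates 1 and 2 alone. SMAD7, the inhibitor that TGF-beta signalling raises against itself, was at 52.7, 55.6, 46.2 and 56.3 CPM against 44.9, 42.2, 41.7 and 44.2 CPM (log2 fold change −0.28, SE 0.08, edgeR adjusted p = 0.164). It was the 1 gene of 27 in its list at an unadjusted p under 0.05, which 14.8% of all genes had, so the list did not stand out.

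Collagen chains leaned higher, with 15 of 21 above 0 and 7 higher at an unadjusted p under 0.05 (6.3% of all genes), at a median of 0.12. COL12A1, a fibril-associated collagen, was at 352, 341, 298 and 306 CPM against 360, 378, 366 and 383 CPM (log2 fold change 0.20, SE 0.05, edgeR adjusted p = 0.14). Its log2 fold change came down to 0.11 with the length trend removed and to 0.10 against replicates 1 and 2 alone. The median of the list came to 0.08 with the length trend removed and to 0.01 against replicates 1 and 2 alone. COL1A1, the main fibrillar collagen, was at 0.10 (SE 0.09), 0.06 with the length trend removed and −0.05 against replicates 1 and 2 alone, and integrin and laminin subunits had a median of 0.06. Among nuclear receptors, the germ cell nuclear factor NR6A1 was at 0.441, 0.716, 0.598 and 0.608 CPM against 1.21, 0.997, 1.09 and 1.21 CPM. Its groups did not overlap and its log2 fold change of 0.92 (SE 0.24, edgeR adjusted p = 0.135) was 0.95 against replicates 1 and 2 alone, at a level of under 2 CPM in every library.

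The list of mitochondrial DNA transcripts was above 0 in 9 of 9 tested genes (median 0.27, 0.40 with the length trend removed, 0.14 against replicates 1 and 2 alone). It did not cover all such transcripts tested: MT-CYTB, outside the list, was at 0.23. MT-ND5, a core subunit of complex I, was at 4177, 4158, 2868 and 3416 CPM against 4165, 4884, 4633 and 4881 CPM, so that vial 1 did not differ and vial 3 differed most (log2 fold change 0.34, SE 0.11, edgeR adjusted p = 0.192; 0.16 against replicates 1 and 2 alone). Nuclear genes of the respiratory chain lay on the other side, with 73 of 73 below 0 and a median of −0.16, as did 83 of 83 cytosolic ribosomal proteins (median −0.22) and 73 of 78 mitochondrial ribosomal proteins (median −0.13). These 3 lists were added after the data had been seen. With the length trend removed their medians were −0.06, −0.08 and −0.04, against replicates 1 and 2 alone they were −0.08, −0.05 and −0.04, and the part of library quality in them was not tested.

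**Figure D3:**
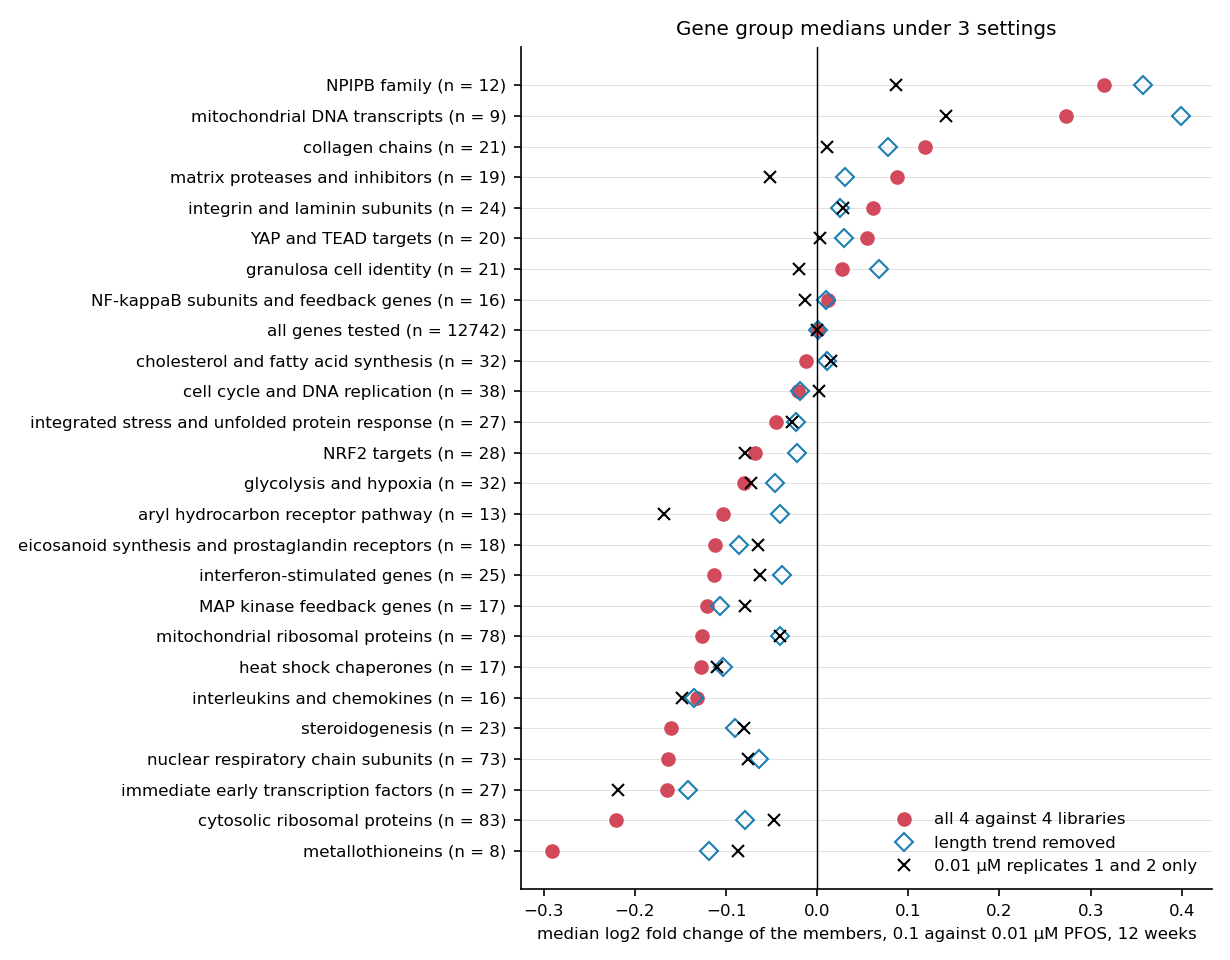
Median log2 fold change of the members of the gene lists shown and of all genes tested, for all 4 against 4 libraries (filled), with the length trend removed (open) and with replicates 1 and 2 alone at 0.01 µM (crosses). Immediate early genes lie between −0.14 and −0.22 in all 3 settings, while metallothioneins and cytosolic ribosomal proteins come nearer to 0 in the latter settings.

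Transcript length went with the fold change across the whole comparison. Over 12634 genes with a length, Spearman's rho between length and log2 fold change was 0.452 at 12 weeks, 0.223 for the same step at 6 weeks and 0.0017 after the trend was removed; this is a correlation across genes of the same libraries, and genes are not independent replicates. In the shortest of 5 length classes (192 to 1833 bp), 25% of 2527 genes were lower and 0.91% higher at an unadjusted p under 0.05. In the longest class (5807 bp and over), 1.54% were lower and 16.6% higher. The lists of cytosolic ribosomal proteins, metallothioneins and nuclear respiratory chain subunits belong mostly to the shortest class (63 of 83, 6 of 8 and 57 of 73), and 0 of 21 collagens do. The 8 include MTF1 and SLC30A1. JUN, ATF3, FOSB, KLF4 and TIPARP have lengths between 1940 and 3861 bp, and their log2 fold changes moved by less than 0.05 when the trend was removed.

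Against the control and the 1 µM group the immediate early genes can be placed by their means, without a test. Their mean was under the control mean in 23 of 27 genes at 0.01 µM and in 26 of 27 at 0.1 µM, whereas 10 of 27 were lower at 1 than at 0.1 µM. JUN stood at 170 ± 18.8 CPM in the control, 159 ± 24.7 at 0.01 µM, 113 ± 7.64 at 0.1 µM and 135 ± 5.92 at 1 µM (SD, n = 4). MLF1 stood at 35.6, 38.8, 29.0 and 31.4 CPM in the same order, so that 0.01 µM had the highest mean. Over all genes tested, 48.9% were under the control at 0.01 µM and 51.9% at 0.1 µM.

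The same step at 6 weeks called 35 of 12836 genes (0.273%), 10 higher (0.0779%) and 25 lower (0.195%), at edgeR's adjusted p, and 5 to 22 when 1 vial was left out. Of the 25 lower ones, 23 were also below 0 at 12 weeks and 14 lower at an unadjusted p under 0.05 (median −0.15), among them PPP1R15A, HSPA1B, DNAJB1, HSPA8, MAFF, IER5 and IRF1. Of all genes tested at 12 weeks, 49.9% were below 0 and 8.54% were lower at that unadjusted p. PPP1R15A was at 283, 283, 294 and 278 CPM at 0.01 µM and at 254, 228, 252 and 257 CPM at 0.1 µM after 6 weeks (log2 fold change −0.20, edgeR adjusted p = 0.0355). Of the 12 genes that fell with the block at 12 weeks, 10 were below 0 at 6 weeks and 4 lower at an unadjusted p under 0.05 (TIPARP, KLF4, ATF3 and PPP1R15A), which 6.74% of all genes were at that time (4.87% were higher). TIPARP was at 136, 129, 114 and 111 CPM against 93.6, 92.1, 95.4 and 99.5 CPM at 6 weeks (log2 fold change −0.37, edgeR adjusted p = 0.0566). JUN differed little at that time, at 126, 128, 141 and 138 CPM against 133, 125, 128 and 124 CPM. The difference of its step between the times was −0.43 (SE 0.12, unadjusted p = 0.00123) and did not pass (edgeR adjusted p = 0.404).

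The test of the difference between the times, over 32 libraries and 12988 genes, called 1 gene (0.0077%), while 1178 (9.07%) had an unadjusted p under 0.05. This was VMP1, a membrane protein of autophagosome formation that hosts the microRNA miR-21. VMP1 was at 67.8, 68.9, 75.5 and 78.3 CPM against 64.5, 62.1, 67.1 and 64.1 CPM at 12 weeks (log2 fold change −0.17, edgeR adjusted p = 0.205; −0.08 against replicates 1 and 2 alone), and its log2 fold change at 6 weeks was 0.23 (edgeR adjusted p = 0.00741). The difference of −0.40 had an adjusted p of 0.0268, which became 0.537 without vial 2, 0.224 without vial 3 and 0.685 without vial 4. Of the 10 genes higher at 6 weeks, 4 were the liver transcripts ALB, AFP, AHSG and APOB, and these did not differ at 12 weeks, where log2 fold changes were −0.08 to 0.23, and −0.13 to 0.00 against replicates 1 and 2 alone.

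Genes that the study named after 12 weeks were chosen on these samples, so that their values here are no independent evidence. Of 15 tested, 7 were below and 8 above 0, 4 were lower and 1 higher at an unadjusted p under 0.05 (8.54% and 6.3% of all genes), and TIPARP alone fell with the block. F2RL3, the protease-activated receptor PAR4, was at 2.81, 2.09, 2.34 and 1.44 CPM against 1.97, 1.11, 1.3 and 0.77 CPM, lower in each vial with overlapping groups (log2 fold change −0.75, SE 0.26, edgeR adjusted p = 0.203). The keratin KRT17 was at −0.22 (SE 0.08). SMIM11 (log2 fold change 1.37, SE 0.96), TBC1D3C (1.07, SE 0.59) and NPIPB7 (0.56, SE 0.31) have near-identical copies, which makes their counts uncertain, and SMIM11 ranged from 0 to 2.66 CPM at 0.01 µM. Against replicates 1 and 2 alone these 3 were at 3.32, 0.43 and 0.29. The whole NPIPB family, primate-specific duplicates on chromosome 16, was above 0 in 12 of 12 genes (median 0.31, but 0.09 against replicates 1 and 2 alone).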

How the data were processed

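Poly(A) RNA of HGrC1 cells was sequenced in stranded libraries on a DNBSEQ platform. Per the submitters' processing notes, the authors used HISAT2 2.0.4, Bowtie2 2.2.5 and RSEM 1.2.8 with GRCh38.p14. The expected counts that the authors deposited per gene are RSEM estimates without normalization, and the deposited TPM values were used for levels per length. Of 47137 gene entries, 18583 had values. Groups and vials were taken from the sample labels.

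Expected counts were rounded and tested with edgeR 4.0.16 (TMM, filterByExpr, robust quasi-likelihood F test, two-sided, Benjamini-Hochberg adjustment over all genes tested) in R 4.3.3, with the 16 libraries of 12 weeks in 1 fit. The 6-week step was fitted likewise, and the difference between times as an interaction over 32 libraries. CPM are scaled by TMM factors of the libraries of 1 time, so levels set across times were normalized separately. Library measures were compared by exact two-sided permutation of the difference of their group means, whose smallest p for 4 against 4 libraries is 0.0286. Alternatives were a replicate block, 8 or 32 libraries, DESeq2 1.42.0, limma 3.58.1 (voom), other size factors and filters, and leaving out libraries. The labels state that 1 flask per vial was divided into the groups, so replicate numbers pair the samples. The correlation of same-vial deviations between both groups was 0.187, 0.237, 0.141 and 0.0931, above every other pairing (at most 0.067). The 1 µM libraries at 12 weeks correlated with those of the same number by −0.133 to −0.0561 in the control and by −0.00873 to 0.122 at 0.1 µM, and the control libraries by −0.0462 to 0.278 with 0.01 µM and −0.022 to 0.0777 with 0.1 µM, so the vials of both groups are uncertain, and the block was therefore also fitted on the 8 libraries alone. The length trend was removed with a lowess offset per library on GENCODE v44 transcript length. The scripts were tested on simulated data. Members, lists and tests were chosen with earlier results of these data known.

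The genes named were the 5 with the lowest p in each direction, since 0 passed, those that passed with the block, the genes the study names after 12 weeks, and in each list the member of lowest p and its defining members. Other members were named after their values were seen. A member of the granulosa list is counted but not reported by name here. Coordinates and promoters are RefSeq's. Deposited normalized values, FPKM and the authors' comparison columns were not used. Python 3.11.15, numpy 2.4.6, pandas 2.3.3 and matplotlib 3.10.9 were used for tables and plots. Where separate vials are the replicates, p-values measure the spread between these 4 cultures of 1 line, and depth limits genes under about 10 counts.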

Additional observations from a re-analysis of the deposited data

Results flagged for a closer look

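Of 152 groups of 4 values screened for a library far from the other 3, 3 passed a limit that chance alone passes in about 5% of groups. These 3 are fewer than that rate would give. TIPARP in replicate 1 at 0.1 µM was at 126 CPM, against 90.6 to 95.8 CPM in the other 3 libraries, a gap of 0.855 of the group's whole range. SMIM11 in replicate 3 at 0.01 µM was at 2.66 CPM against 0 to 0.386 CPM, with the same ratio of 0.855, and has a near-identical copy. Replicate 1 at 0.01 µM had 14850 genes detected, against 14735 to 14741 in the other libraries of its group (ratio 0.948). VMP1 stood out because its step from 0.01 to 0.1 µM differed between the times: the log2 fold change at 12 weeks minus that at 6 weeks was −0.404 (edgeR's interaction test, adjusted p = 0.0268).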

How the results depend on the processing

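The number of genes past the adjusted p was 0 in the reported fit, 0 with the 8 libraries alone, RLE or upper quartile factors, at least 10 counts per library, limma voom, without control replicate 3 and with the length offset, 415 with all 32 libraries, 8 without a filter, 44 and 148 with DESeq2 on 8 and 16 libraries (of 2193 and 8426 genes with an adjusted p), 13 and 65 with the replicate block on 16 and 8 libraries, 7 with length offset and block, and 1 with 0.01 µM replicates 1 and 2 alone. That 1 gene was C15orf39 (log2 fold change −0.62, adjusted p 0.00526). DEGs numbered 1 with 32 libraries, without a filter and with either block. Leaving out 1 vial gave 0 to 394 genes and 0 to 1 DEGs, and leaving out 1 library 0 to 642 genes and 0 to 2 DEGs. The highest counts came without vial 1 (394), without 0.01 µM replicate 1 (642) and without 0.1 µM replicate 1 (11), and the cause was not tested. The difference between times gave 5 genes on 16 libraries and 0 to 8 without 1 vial, and the 6-week step 5 to 22 without 1 vial.

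The direction turned, far from any threshold, for 6 genes. When single vials or libraries were left out, log2 fold changes ranged from −0.0151 (without vial 4; −0.00137 without 0.01 µM replicate 4) to 0.146 for GLI2, from −0.00638 (without vial 2) to 0.541 for SFRP1, from −0.359 to 0.0372 (without 0.01 µM replicate 3) for KDR, from −0.121 (without 0.01 µM replicate 1; −0.0945 and −0.0194 without vials 1 and 4) to 0.22 for LOC124907854 and from −0.342 to 0.0533 (without vial 3) for TTPA. Against 0.01 µM replicates 1 and 2 alone they were −0.0632 for GLI2, −0.0152 for FGFR4 and 0.153 for KDR. The other genes chosen by the naming rule kept their direction in every setting that gave them a value. Genes named outside the rule are not covered by this count, and some of them turned, such as EGR1, ARNT, KLF10 and ATF4. Of 27 settings at most, JUN, MLF1 and LENG8 passed in 10 each, TIPARP and PPP1R15A in 9, ATF3 and TMEM141 in 8, and KLF4, FOXJ1, CENPW, NDUFA6 and SNRPD2 in 7. FOSB, the gene of lowest p with the block, passed in 5, the fewest of these genes. The 95% intervals of single genes limit what 4 libraries per group can show. Over all genes tested, the median interval reached 0.152 to either side on the log2 scale, but that of FOXJ1 ran from −1.87 to −0.82.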
